A study of Homo sapiens with 18 samples.

Results

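Ras GTPase-activating proteins (Ras GAPs) switch off the small GTPase Ras. The genes of this family followed here were chosen by name: RASAL1, RASAL2, RASAL3, RASA1, RASA2, RASA3, NF1, DAB2IP and IQGAP1, which are 9 of the 58735 genes of a deposited table of raw read counts. RASAL1 is among the genes named in the title of the series, which deals with opioid side effects. The cells were SH-SY5Y, a human neuroblastoma cell line that extends neurites and acquires neuronal traits when given retinoic acid. Every group was differentiated with 10 µM all-trans retinoic acid for 7 days before a treatment of 15 min. Morphine was given at 193 nM and metamorphine at 169 nM, the dose of TRV130, of beta-endorphin and of naloxone was 200 nM, and Control cells received water, with 3 libraries in each of the 6 groups. Morphine is the classical agonist of the µ-opioid receptor, TRV130 is an agonist biased towards G protein signalling, beta-endorphin is an endogenous opioid peptide and naloxone is an antagonist. SH-SY5Y is a single tumour line, so libraries of a group differ in handling and not in donor. The labels do not say whether they came from separate cultures. The p-values therefore rest on a spread between libraries that may be technical.

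Ras proteins carry signals from surface receptors to the RAF, MEK and ERK kinases while they hold GTP. A Ras GAP inserts an arginine, the arginine finger, into the active site of Ras and speeds the hydrolysis of GTP to GDP, which ends the signal. Neurofibromin, the product of NF1, is the best known of these proteins as a tumour suppressor of the nervous system, and loss of NF1 occurs in neuroblastoma. RASA1 (p120 RasGAP) is recruited by phosphorylated receptors, RASA2, RASA3 and RASAL1 belong to the GAP1 family with paired C2 domains, RASAL2, RASAL3 and DAB2IP belong to the SynGAP family, and IQGAP1 is a scaffold whose related domain binds small GTPases without speeding hydrolysis. RASAL1 moves to the plasma membrane in response to calcium signals.

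The coding sequence around the arginine finger shows how close RASAL1 stands to its relatives. A search of 1 coding transcript of each gene (GENCODE 29, GRCh38) looked in the translated protein for phenylalanine and arginine followed, after 2 residues, by threonine or serine, leucine or isoleucine, alanine or valine, and serine or threonine. This pattern occurred once in 8 of the 9 members and had no match in IQGAP1. Below are 36 bases of coding sequence around the pattern, with the codon of the arginine in capitals. They are given for RASAL1, for the closest of its GAP1 relatives among the members, and for 1 gene of each other branch. Genes outside the members, such as RASA4, were not aligned to RASAL1.
RASAL1: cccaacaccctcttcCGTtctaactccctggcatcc
RASA3: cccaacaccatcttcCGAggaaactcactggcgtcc
RASA1: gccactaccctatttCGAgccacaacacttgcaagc
NF1: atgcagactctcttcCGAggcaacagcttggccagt
RASAL2: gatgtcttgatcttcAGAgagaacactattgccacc
The RASAL1 stretch lies in exon 12 of 22 on the minus strand, at chr12:113115224-113115259, and its capitals encode arginine 342. Arginine 371 of RASA3 is encoded in exon 12 of 24 at chr13:114017312-114017347 on the minus strand. RASA1 has its arginine at residue 789, in exon 18 of 25 at chr5:87378401-87378436, and NF1 at residue 1276, in exon 28 of 57 at chr17:31235713-31235748, both on the plus strand. The RASAL2 codon, for arginine 517, lies in exon 9 of 18 at chr1:178445569-178445604 on the plus strand. RASA3 shared 29 of the 36 bases with RASAL1, against 22 for RASA2, 21 for RASA1 and for DAB2IP, 19 for NF1, 17 for RASAL3 and 16 for RASAL2. In the best local alignment of the proteins, RASA3 was identical to RASAL1 at 35.5% of 750 aligned residues and RASA2 at 31% of 756. Over shorter aligned stretches, identity was 35.5% of 256 residues for NF1, 33.4% of 287 for RASAL3 and 31.5% of 333 for DAB2IP. It was 30.7% of 358 for RASAL2, 29.2% of 404 for RASA1 and 28.3% of 187 for IQGAP1. RASA3 and RASA2 thus differed from the others in aligned length more than in percent identity. Despite this likeness, RASAL1 shared only 0.0759% of its 50-base transcript words with any other gene, and RASA3 and RASA2 shared 0%, so their reads can be told apart.

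Total counts ran from 21211449 to 33123855 per library. Library names end in 1 of 3 numeric codes, called A (7 libraries), B (6 libraries) and C (5 libraries) here. Each group has 1 library per code except TRV130, with 2 libraries in A, whose names carry 1 extra leading digit, and 1 in B. The labels do not explain the code. The neuroblastoma label held, since all 15 sympathetic neuron and neuroblastoma markers averaged at least 1 CPM (reads scaled to the library total), with PHOX2A at 1570 CPM and DBH at 1720 CPM. Control 1 stood apart from the other 17 libraries. The summed level of the 3646 protein-coding genes whose median count was 0 was 13.0 to 46.2 CPM in the 12 libraries of the 4 agonists and 105, 59.0 and 11.5 CPM in the naloxone libraries, against 819 CPM in Control 1, 40.3 in Control 2 and 11.4 in Control 3. Control 1 also had the lowest level of long transcripts, as given beside the abundant members.

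The members fell into 7 genes with 154 to 3272 reads in every library and 2 genes, RASAL1 and RASAL3, with few or none. Levels of different genes were compared as CPM per kilobase of merged exons, as means ± SD over the 18 libraries. DAB2IP, which binds the adaptor DAB2 and also acts on apoptosis signalling, led with 10.4 ± 1.96 CPM per kb, followed by RASA1 with 7.91 ± 1.69. IQGAP1 had 4.57 ± 1.12, RASA2 3.97 ± 0.587 and NF1 3.21 ± 0.916 CPM per kb. RASA3 had 2.21 ± 0.36, RASAL2 1.13 ± 0.304, RASAL1 0.0531 ± 0.104 and RASAL3 0.0135 ± 0.0412 CPM per kb. Neighbours in this order that differed by less than the larger SD of the pair were IQGAP1 over RASA2 (0.599 CPM per kb, higher in 13 of 18 libraries), RASA2 over NF1 (0.759, higher in 17 of 18) and RASAL1 over RASAL3 (0.0396, higher in 15 of 18). With the length of the longest transcript in their place, NF1 stood at 7.01 and IQGAP1 at 7.29 CPM per kb, which is shorter than the merged exons, and NF1 then lay above RASA2.

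**Figure D1:**
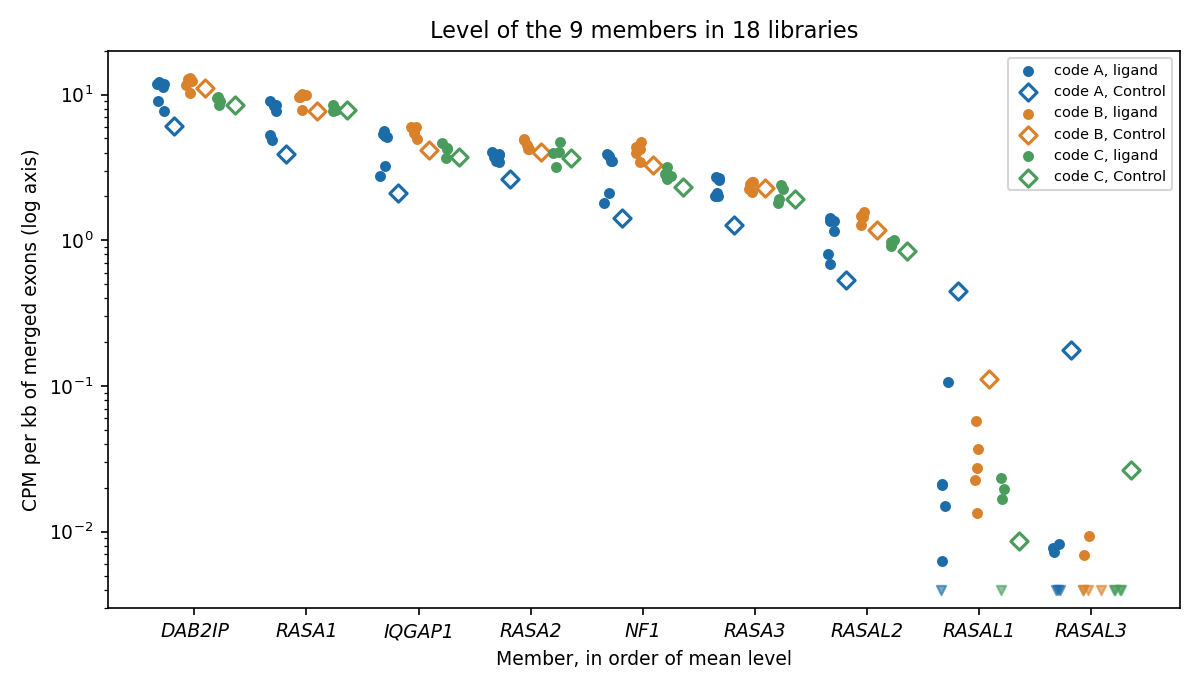
Level of each member in every library, in CPM per kb of merged exons on a log axis, with ligand libraries as filled circles and Control libraries as open diamonds to their right, coloured by library code; triangles at the lower edge stand for libraries with 0 reads. The 7 abundant members lie at or above 0.534 CPM per kb in every library, while RASAL1 reaches 0.449 CPM per kb in Control 1 and no more than 0.111 elsewhere.

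RASAL1 (ENSG00000111344, chr12:113098819-113136239, minus strand) had few reads in most libraries. It had 0, 2 and 3 reads in the morphine libraries, 3, 3 and 2 with metamorphine, 3, 1 and 3 with TRV130, 2, 4 and 2 with beta-endorphin, and 15, 7 and 0 with naloxone, against 55, 12 and 1 in the Control libraries. As levels these were at most 0.179 CPM in the 12 libraries of the 4 agonists and 0.511 CPM in Naloxone 1, against 2.16 CPM in Control 1, 0.534 CPM in Control 2 and 0.0414 CPM in Control 3. Control 1 was the highest of the 18 libraries, Control 2 lay near Naloxone 1, and Control 3 lay below most ligand libraries. The 0 reads of Morphine 1 and of Naloxone 3 allow levels of up to 0.116 and 0.104 CPM (3 counts per library, for counting error only).

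Of all 118 RASAL1 reads, 55 came from Control 1, which is 46.6% (exact 95% binomial interval 37.4 to 56.0%, for counting error only), although this library held 5.33% of all counts. Control 1 accounted for 80.9% of the Control reads of the gene. The 4 libraries Naloxone 1, Naloxone 2, Control 1 and Control 2, chosen after their values were seen, held 89 of the 118 reads, and the other 14 held 29. Among the abundant members, the share of reads in Control 1 ran from 2.37% for NF1 to 3.55% for RASA2. The mean level of RASAL1 without Control 1 was 0.0298 CPM per kb. DAB2IP then stood 355-fold and RASAL2 39.2-fold above it, against 195-fold and 21.4-fold over all libraries. Within Control 1 alone, RASAL2 was 1.19-fold and NF1 3.15-fold above RASAL1.

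**Figure D2:**
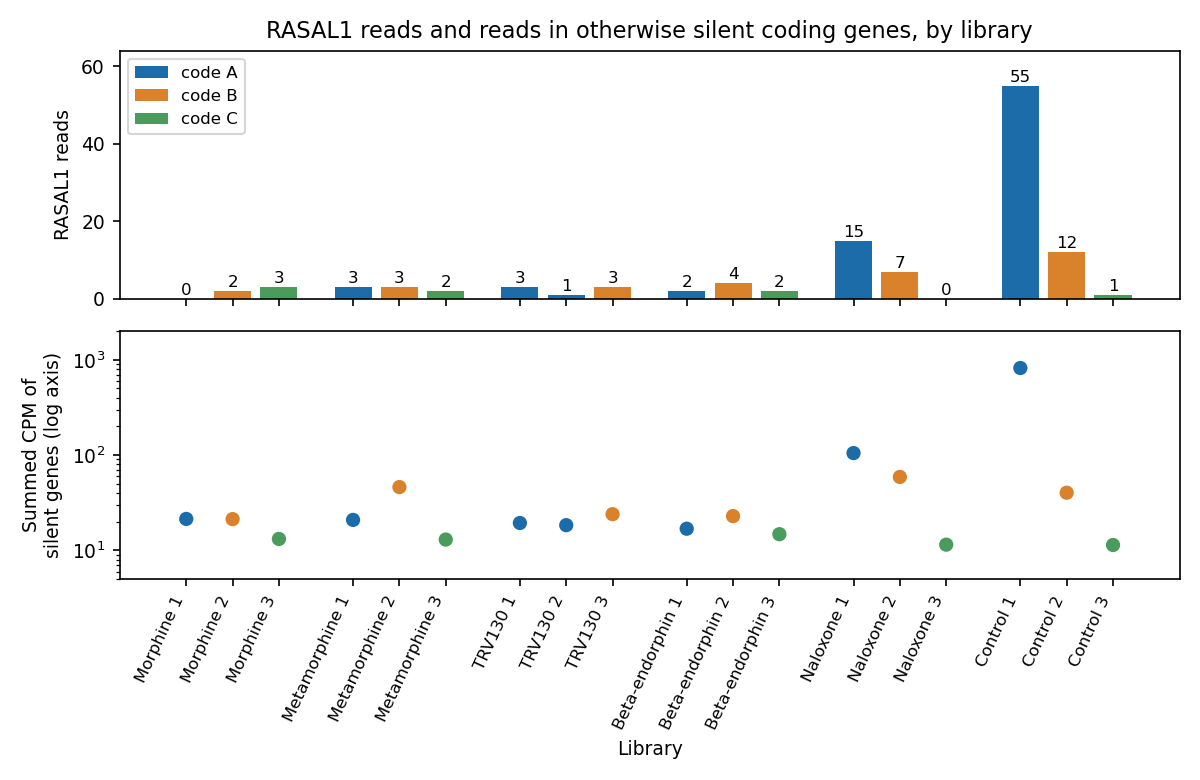
RASAL1 reads in each library (upper panel, bars with the count above) and the summed CPM of protein-coding genes whose median count was 0 (lower panel, log axis), coloured by library code. Control 1 is highest in both panels, with 55 RASAL1 reads and 819 CPM.

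No difference of RASAL1 between a ligand and Control passed the test (edgeR quasi-likelihood, Benjamini-Hochberg over 23231 tested genes). The log2 fold change was -3.99 with morphine (SE 1.24, 95% interval -6.61 to -1.37, edgeR adjusted p = 0.823) and -3.23 with metamorphine (SE 1.17, adjusted p = 0.596). It was -3.53 with TRV130 (SE 1.19, adjusted p = 1.00), -3.23 with beta-endorphin (SE 1.17, adjusted p = 0.513) and -1.99 with naloxone (SE 1.06, adjusted p = 0.654). Unadjusted edgeR p values were under 0.05 for 4 of these 5, from 0.00526 with morphine to 0.014 with metamorphine, and 0.0787 with naloxone. RASAL1 reached 10 reads, the minimum count of the low-count filter, only in Control 1 (55), Control 2 (12) and Naloxone 1 (15). It was thus tested only through libraries where it was high. Lower values with the agonists were favoured by that filter, so these p values and intervals are descriptions only. Without Control 1 the log2 fold changes were -2.19 with morphine, -1.41 with metamorphine, -1.73 with TRV130, -1.43 with beta-endorphin and -0.17 with naloxone. Morphine and metamorphine were given at different doses, so their values stand side by side without a test.

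Within a library code the RASAL1 values depended on which Control library they were set against. In code A, all 6 ligand libraries lay below Control, with differences from -5.08 to -2.15 on the log2 CPM scale. In code B all 5 lay below, with differences from -2.12 to -0.87. In code C, 3 of 4 lay above Control and 1 below, with differences from -0.65 to 0.69. Each code has 1 Control library, so no test within a code was possible. Across the libraries RASAL1 followed the reads in otherwise silent genes, with r = 0.899 between its log2 CPM and the log10 of their summed CPM over 18 libraries that share depth and library preparation. Control 1 was highest in both measures, and r without that library is not given here. The part of the reads in silent genes in the RASAL1 difference was not tested.

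Immune, endothelial, epithelial and glial markers were low beside fibroblast and mesenchymal markers. The summed level of the 16 immune markers, of which 4 averaged at least 1 CPM, was 33.3 to 52.6 CPM in ligand libraries and 40.3 to 63.5 CPM in Control libraries. For the 8 endothelial markers (2 at 1 CPM or more) it was 25.6 to 38.1 CPM with ligands and 31.1 to 59.5 CPM in Control. The 12 epithelial markers (3 at 1 CPM or more) summed to 8.0 to 22.3 CPM with ligands and 9.95 to 28.6 CPM in Control, and the 8 Schwann and glial markers (3 at 1 CPM or more) to 8.18 to 12.1 CPM and 10.4 to 13.6 CPM. The highest Control sum was that of Control 1 for each of these lists. The 10 fibroblast and mesenchymal markers (8 at 1 CPM or more) ran the other way, at 309 to 615 CPM with ligands and 298 to 499 CPM in Control, with Control 1 lowest, and POSTN had 0 reads in every library. The part of other cell types was not tested.

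RASAL3, a SynGAP-family member best known from blood cells, failed the low-count filter and was not tested. It had 1, 1 and 0 reads with morphine, 1, 1 and 0 with metamorphine, 0 in all TRV130 libraries, 1, 0 and 0 with beta-endorphin and 0 in all naloxone libraries, against 21, 0 and 3 in Control. Control 1 thus held 72.4% of its 29 reads (exact 95% binomial interval 52.8 to 87.3%, for counting error only). Both low members had their highest count in Control 1.

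NF1 was one of the members with the most reads (41249 in all). Its level was 106, 92.9 and 74.6 CPM with morphine, 102, 108 and 77.2 with metamorphine, 48.7, 56.9 and 114 with TRV130, 95.2, 118 and 86.2 with beta-endorphin, and 95.1, 129 and 71.8 with naloxone, against 38.4, 89.8 and 62.7 CPM in Control. Control 1 and both code A libraries of TRV130 were lowest, and the ligand and Control groups overlapped in each comparison. IQGAP1, a scaffold of the actin cytoskeleton and of the ERK cascade, had 64.9, 57.0 and 42.2 CPM with morphine, 61.8, 65.7 and 48.5 with metamorphine, 31.9, 37.6 and 63.0 with TRV130, 59.1, 68.8 and 53.4 with beta-endorphin, and 60.0, 69.1 and 49.5 with naloxone, against 24.5, 48.3 and 43.1 CPM in Control. Each metamorphine, beta-endorphin and naloxone library of IQGAP1 lay above all 3 Control libraries, which held for 1 of 8 tested members and for 5.19%, 6.06% and 4.34% of all tested genes in these 3 comparisons. With morphine and with TRV130 no member was above Control without overlap, beside 2.97% and 1.71% of all tested genes.

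The other abundant members are given as group means ± SD in CPM over 3 libraries. RASAL2 had 19.5 ± 2.96 with morphine, 20.7 ± 4.33 with metamorphine, 16.3 ± 7.60 with TRV130, 20.3 ± 4.19 with beta-endorphin and 18.8 ± 4.28 with naloxone, against 13.7 ± 5.19 in Control. DAB2IP ranged from 88.6 ± 21.8 with TRV130 to 106 ± 17.4 CPM with beta-endorphin, against 78.2 ± 23.0 in Control. For both genes the Control mean was the lowest of the 6, and the libraries of the groups overlapped. Among the GAP1 family and RASA1, RASA1 had 43.1 ± 3.79 CPM with morphine, 45.2 ± 4.54 with metamorphine, 34.7 ± 13.9 with TRV130, 46.7 ± 4.27 with beta-endorphin and 44.6 ± 6.83 with naloxone, against 33.9 ± 11.6 in Control. RASA2 ranged from 23.1 ± 2.27 with TRV130 to 25.5 ± 2.50 with metamorphine, against 20.7 ± 4.45 CPM in Control. RASA3 ranged from 9.83 ± 0.397 with TRV130 to 11.8 ± 0.546 with beta-endorphin, against 8.69 ± 2.48 CPM in Control. Control 1 was the lowest of the 18 libraries for all 7 abundant members, the reverse of its place for RASAL1 and RASAL3. Reads of RASA1 carry an uncertainty, because 14.7% of its exon bases (771) also belong to CCNH on the other strand and the counts carry no strand. For RASAL2 the bases shared with CLEC20A made up 3.51%.

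None of the 8 tested members differed between a ligand and Control at an adjusted p of 0.05 in edgeR. The background was the same: 0% of 23231 genes were called with morphine, metamorphine, TRV130, beta-endorphin or naloxone, and 0% in the test of any difference among the 6 groups. Unadjusted edgeR p values under 0.05 numbered 944, 1819, 430, 2197 and 1544 genes for these 5 ligands in that order and 566 among the groups, and DESeq2 called 0, 0, 1, 1 and 1 genes and 9 among the groups. The 7 abundant members had positive log2 fold changes in all 35 tests, from 0.02 to 0.53. Positive values were held by 46.3 to 47.2% of all tested genes, by ligand. Among protein-coding genes with a longest transcript over 6 kb the share was 75.0 to 86.4%. The median of the 7 abundant members was 0.27 with morphine, 0.29 with metamorphine, 0.19 with TRV130, 0.34 with beta-endorphin and 0.28 with naloxone, beside medians of -0.04 to -0.02 over all tested genes. These tests left the library code out, and TRV130 had 2 libraries of code A and no library of code C. Where TRV130 differs from the other ligands, ligand and code therefore cannot be told apart. The values for IQGAP1 were 0.42 with morphine (SE 0.22), 0.48 with metamorphine, 0.19 with TRV130, 0.52 with beta-endorphin and 0.51 with naloxone, and 3 of them had an unadjusted edgeR p under 0.05 (0.0447 with metamorphine, 0.0301 with beta-endorphin and 0.0336 with naloxone). Without Control 1 the IQGAP1 values were 0.20, 0.27, -0.03, 0.30 and 0.31 in the same order, and no member passed. The abundant members then ran from -0.21 for RASA1 with TRV130 to 0.31 for IQGAP1 with naloxone, with 7 of 7 above Control with morphine, metamorphine and beta-endorphin, 4 with TRV130 and 6 with naloxone. With morphine NF1 then stood at 0.21 in place of 0.44 and RASA1 at 0.03 in place of 0.27, and with beta-endorphin RASA2 stood at 0.003 in place of 0.14. In bulk RNA, fewer cells with a transcript and less of it per cell cannot be told apart.

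**Figure D3:**
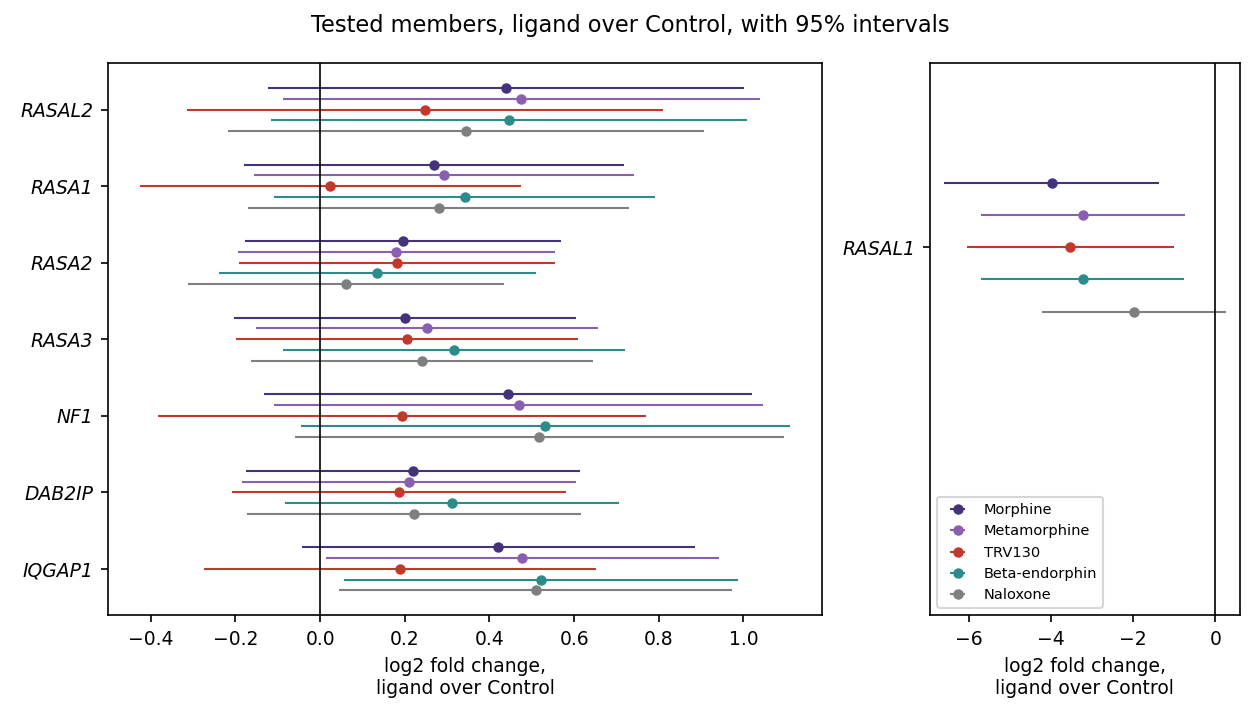
Log2 fold change of each tested member, ligand over Control, with 95% intervals from the edgeR fit; the left panel shows the 7 abundant members and the right panel RASAL1 on its own scale. All points of the abundant members lie above 0 and those of RASAL1 below 0, and none passed the adjusted test.

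The levels of the 7 abundant members, 4 of which have a longest transcript over 6 kb, moved with those of long transcripts across the libraries. The 2420 protein-coding genes outside the members with a longest transcript over 6 kb and a mean log2 CPM above 2 had a median deviation from their own means of -0.23 in TRV130 1, -0.18 in TRV130 2 and 0.24 in Naloxone 2, against -0.52 in Control 1. The mean deviation of the 7 members was -0.22 in TRV130 1 and in TRV130 2 and 0.27 in Naloxone 2, against -0.695 in Control 1, and the correlation of both measures was r = 0.984 over the 18 libraries. Genes with a longest transcript of at most 2 kb went the other way, with a median deviation of 0.54 in Control 1. In the comparisons with Control, the median log2 fold change of these long genes was 0.23 with morphine, 0.27 with metamorphine, 0.11 with TRV130, 0.31 with beta-endorphin and 0.26 with naloxone, near the medians of the members. The part of transcript length in the members' values was not tested.

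**Figure D4:**
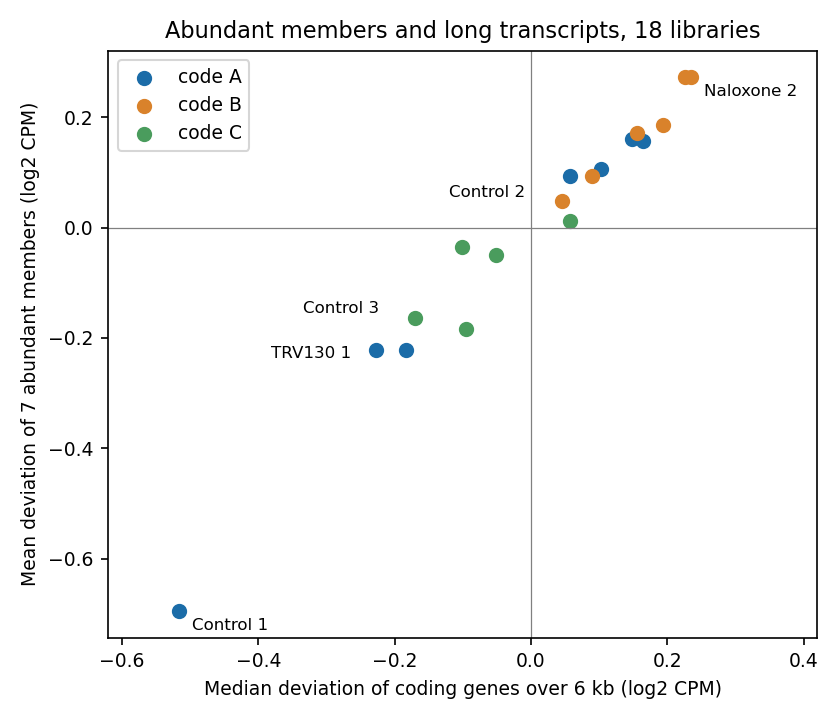
Mean deviation of the 7 abundant members from their own means (y axis, log2 CPM) against the median deviation of 2420 protein-coding genes with a longest transcript over 6 kb (x axis, log2 CPM), 1 point per library, coloured by library code. The points lie along a line, with Control 1 at the lower left and Naloxone 2 at the upper right.

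Set against the Control library of their own code, the 7 abundant members were higher in 42 of 42 ligand values in code A, 28 of 35 in code B and 20 of 28 in code C. Control 1 was the lowest library for all 7 members, so the count in code A follows from that library alone. The members share libraries and 1 Control library per code, so these counts are descriptions and not independent values. The median of the long genes also lay above Control in every ligand library of each code. The size also differed between codes. For NF1 the median difference on the log2 CPM scale was 1.06 in code A, 0.26 in code B and 0.24 in code C, and for IQGAP1 it was 1.03, 0.34 and 0.13. RASA1 had 0.79, 0.24 and -0.03, and RASA3 had 0.71, -0.01 and 0.09. The long genes had median differences of 0.60 in code A, 0.13 in code B and 0.08 in code C. The largest differences thus stood against Control 1, and in codes B and C some members lay on either side of Control.

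**Figure D5:**
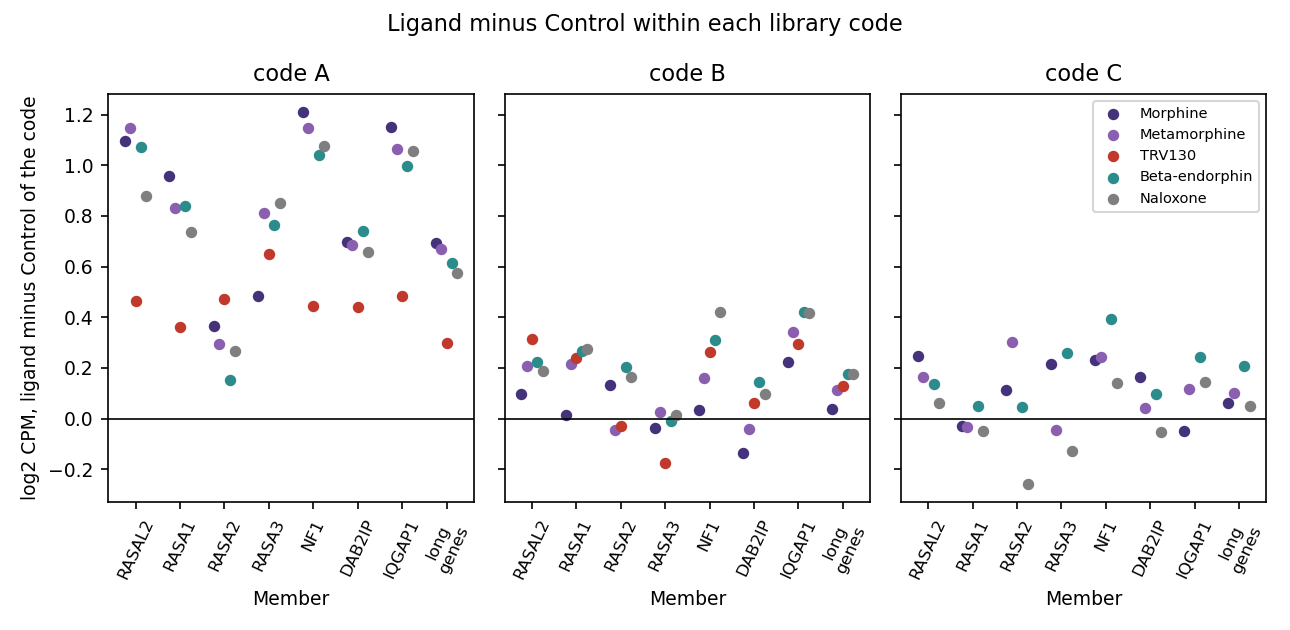
Difference in log2 CPM between each ligand and the Control library of the same code for the 7 abundant members and for the median of the long protein-coding genes, with 1 panel per code and 1 colour per ligand (TRV130 in code A is the mean of 2 libraries). All points lie above 0 in code A, where the Control library is Control 1, and nearer to 0 in codes B and C.

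Differences between library codes, with the treatment group in the model, passed the edgeR test for some members. Among any of the 3 codes, 2 of 8 tested members differed, NF1 (adjusted p = 0.010) and RASAL2 (adjusted p = 0.0142), against a background of 57.8% of all tested genes. DESeq2 also called RASA1 (adjusted p = 0.0416), DAB2IP (0.0322) and IQGAP1 (0.0487) there. The share of all genes that DESeq2 called there is not given here, so these calls stand without a background. In edgeR, RASA1 passed without the low-count filter (adjusted p = 0.0413) and DAB2IP with RLE scaling (0.0441). Between code B and code A, NF1 was higher in B by 0.41 on the log2 scale (SE 0.13, adjusted p = 0.0279) and RASA1 by 0.32 (SE 0.11, adjusted p = 0.0438), 2 of 8 members beside 26.9% of all tested genes. No member passed between code C and code A, beside 33.2% of all tested genes. Between code C and code B, 4 of 8 members were lower in C, beside 54.8% of all tested genes. These were RASAL2 (log2 fold change -0.50 [SE 0.14], adjusted p = 0.00709), NF1 (-0.50, adjusted p = 0.00798), DAB2IP (-0.31, adjusted p = 0.0214) and IQGAP1 (-0.32, adjusted p = 0.0469). Among the long genes, the median log2 fold change was 0.20 for B over A and -0.24 for C over B. The calls for NF1 and RASA1 between B and A were lost without the TRV130 group (log2 fold changes 0.30 and 0.24, edgeR adjusted p = 0.168 and 0.214), as was that of IQGAP1 between C and B (-0.27, adjusted p = 0.101). The same 3 calls were lost with no treatment group in the model (edgeR adjusted p = 0.0646 for NF1, 0.0525 for RASA1 and 0.131 for IQGAP1). Without the low-count filter, the calls between C and B were lost for DAB2IP (adjusted p = 0.105) and IQGAP1 (0.094). DESeq2 also called RASAL2 between B and A (log2 fold change 0.35, adjusted p = 0.0413). With 1 library left out at a time, the calls between B and A were lost in 13 of 18 fits for RASA1 and 6 for NF1, those between C and B in 16 for IQGAP1 and 5 for DAB2IP, and that of RASAL2 among the codes only without Control 2 (adjusted p = 0.0541). RASAL1 did not pass between any pair of codes, with log2 fold changes of -0.59 for B over A, -2.16 for C over A (edgeR adjusted p = 0.0889) and -1.57 for C over B. With 1 library left out at a time, C over A ran from -2.92 to -1.08 and passed without Morphine 1 (adjusted p = 0.0465) and without Morphine 3 (0.0316), and C over B ran from -2.39 to -0.60. In levels, RASAL1 had 8 reads in the 5 code C libraries, 31 in the 6 of code B and 79 in the 7 of code A, of which 55 were in Control 1. The libraries through which it passed the low-count filter were of codes A and B, so that filter limits these values as well.

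The rest of the Ras pathway was read from lists of related genes, and no gene of these lists passed the edgeR test against Control with any ligand. The 10 adaptors and SPRED genes, which link receptors to Ras or restrain RAF, had 8 or 9 values above Control with each ligand and medians from 0.04 to 0.38. Beside the counts of these lists, 46.3 to 47.2% of all tested genes lay above Control, by ligand. Of the long genes over 6 kb, 75.0 to 86.4% did, with medians from 0.11 to 0.31. Among the 7 tested exchange factors, which load Ras with GTP, 2 or 3 lay above Control with each ligand. The exchange factor RASGRP4 had the smallest p of them, with log2 fold changes of -1.70 with morphine (edgeR unadjusted p = 0.00604, adjusted p = 0.823) and -1.77 with metamorphine (unadjusted p = 0.00497, adjusted p = 0.596), and its highest level, 2.63 CPM, was in Control 1. Of the 10 genes from RAF to ERK, 6, 7, 3, 7 and 5 lay above Control with morphine, metamorphine, TRV130, beta-endorphin and naloxone, with medians from -0.09 to 0.11. EVI2A and OMG, which lie inside introns of NF1 on the other strand, were the 2 tested genes of 3 there, and both lay below Control with every ligand, at 0.304 and 0.391 CPM on average. The log2 fold change of OMG ran from -1.73 with morphine (SE 1.14) to -0.05 with metamorphine (SE 1.05). That of EVI2A ran from -1.13 with naloxone to -0.86 with metamorphine (SE 0.96 for each). None of these values had an unadjusted edgeR p under 0.05.

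Between code C and code B, 54.8% of all tested genes passed, and the genes of the Ras pathway are given beside that share. HRAS was higher in C by 0.68 on the log2 scale, NRAS by 0.72, RRAS by 1.03 and RRAS2 by 0.65 (edgeR adjusted p from 5.18e-05 to 0.000669). MRAS, another Ras-family gene, had a log2 fold change of 0.23 and did not pass (edgeR adjusted p = 0.0558). Genes with a Ras GAP domain outside the members were lower in C, with log2 fold changes of -1.005 for RASA4, -0.76 for RASA4B, -0.48 for IQGAP2 and -0.86 for IQGAP3 (edgeR adjusted p from 2.9e-05 to 0.0197). RASA4 and RASA4B are near-identical copies, so their split of reads is uncertain. Of the 10 genes of the kinase cascade 5 passed, beside 54.8% of all tested genes: MAP2K1 (0.53), MAP2K2 (0.51) and SHOC2 (0.60) were higher in C, and the scaffolds KSR1 (-0.62) and KSR2 (-0.98) were lower. For the short genes of at most 2 kb the median of this comparison was 0.64, and for the long genes it was -0.24.

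Among 14961 tested protein-coding genes outside the members, those whose log2 CPM was among the most like RASAL1 over the 18 libraries included MUC4 (r = 0.917), COL4A4 (0.898), LMAN1L (0.884) and CYP17A1 (0.874). These 4 were highest in Control 1, which held 25.6% of the MUC4 reads, 25.0% of those of COL4A4, 44.3% of LMAN1L and 32.5% of CYP17A1. Without Control 1 their r with RASAL1 was 0.828, 0.76, 0.768 and 0.732. The abundant members were unlike RASAL1, with r from -0.486 for RASA1 to -0.237 for RASA2, and without Control 1 from 0.0871 for RASA1 to 0.555 for RASA3. Among themselves the 7 abundant members had r from 0.326 to 0.964 over 21 pairs, highest for NF1 with IQGAP1 and lowest for RASA2 with IQGAP1. These values describe libraries that share depth, codes and preparation.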

How the data were processed

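RNA of 18 libraries was counted per gene. Per the labels' protocols, TRIzol extraction was followed by DNase I, and unstranded libraries were sequenced as 150 bp read pairs. The authors deposited raw read counts per Ensembl gene. FastQC, HISAT2, featureCounts, DESeq2 and the build GRCh38 are named in the submitters' processing notes, without versions. All 58735 IDs matched GENCODE 29, which gave symbols, positions and exon lengths. Columns were matched to samples by name; that of Control 1 lacks 1 digit of its label's code. No library pair was identical.

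Genes were kept by filterByExpr (minimum count 10; 23231 genes), scaled by TMM and tested with edgeR 4.0.16 (R 4.3.3) by the robust quasi-likelihood test, two-sided, on all 18 libraries with 1 mean per group, and with group and library code for the codes. Benjamini-Hochberg adjustment covered all tested genes, with a threshold of 0.05. CPM used library totals; log2 CPM used TMM and a prior count of 2. At this depth 3 reads correspond to 0.0906 to 0.141 CPM. The alternatives were DESeq2 1.42.0, RLE scaling, no filter, blocks, the compared groups alone and libraries left out. The fits were also run on simulated data, with changes set only in genes with many reads. That run does not cover genes with few reads such as RASAL1, and its results are not given here. The members and gene lists were chosen with earlier results of these data known. Members were named in every comparison; of other lists, those that passed or those with the smallest p. Results for some genes of these lists and for some genes most like RASAL1 are not reported here.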

Additional observations from a re-analysis of the deposited data

Results flagged for a closer look

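Within the libraries of a code, 27 sets of 1 member and 1 code were examined for a library far from the others, and 5 were found. The rule flags about 1 in 20 sets of independent, normally distributed values. That rate does not hold for members that share libraries, nor for RASAL1 and RASAL3 with their few reads, so chance was not tested. The RASAL1 value of Control 1 was singled out before this search, so its flag adds no new result. RASAL1 stood at 2.16 CPM in Control 1, against 0.511 CPM in the next of the 7 code A libraries. RASAL3 stood at 0.825 CPM in Control 1, against 0.0388 CPM in the next, and at 0.124 CPM (3 reads) in Control 3, against 0 reads in the other code C libraries. RASA2 was lowest in Control 1, at 15.7 CPM, against 20.8 CPM in the next. RASA1 was highest in Beta-endorphin 3 among the 5 code C libraries, at 44.3 CPM, against 41.5 CPM in the next. Of these 5 values 3 are from Control 1, which also held the most reads in otherwise silent genes; the part of those reads was not tested.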

How the results depend on the processing

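No member passed the threshold against Control under any alternative, and 24 of 556 alternative log2 fold changes of members changed sign, 15 of them with TRV130 and 8 with naloxone. DESeq2 called 1 gene each with TRV130, beta-endorphin and naloxone and 9 among the 6 groups, where edgeR called 0. With the library code as a replicate block the RASAL1 log2 fold change with morphine was -3.47 (edgeR adjusted p = 0.336), and with the replicate number as a replicate block -3.40 (adjusted p = 0.643). Neither block called any gene against Control. Same-code libraries had a median r of deviations of 0.429 (-0.349 to 0.759 over 45 pairs), against -0.187 for different codes, and the code block lowered the biological coefficient of variation to 0.182, against 0.309 without it. The pairing check asked for every same-code pair to deviate together, which 1 odd library can prevent, and was not met. The main tests against Control left the code out, so their SEs, intervals and p values include differences between codes. With the code block the log2 fold changes with morphine were 0.48 for NF1 and 0.43 for IQGAP1 (edgeR adjusted p = 0.336 for each).

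With the code block and without Control 1, values were -0.019 for RASA3 with morphine and -0.0069 for RASA2 with naloxone, and with TRV130 they were -0.072 for RASAL2, -0.142 for RASA1, -0.092 for RASA3, -0.098 for NF1, -0.080 for DAB2IP and -0.099 for IQGAP1. Without Control 1, Naloxone 1 and Naloxone 2 together, values with TRV130 were -0.186 for RASA1 and -0.014 for NF1, and with naloxone -0.115 for RASAL2, -0.250 for RASA2, -0.186 for RASA3, -0.052 for NF1 and -0.176 for DAB2IP. Leaving out 1 library at a time gave -0.058 to 0.502 for RASAL2, -0.221 to 0.185 for RASA1, -0.136 to 0.469 for NF1 and -0.028 to 0.332 for IQGAP1 with TRV130, and -0.077 to 0.150 for RASA2 with naloxone. Members above Control with TRV130 then numbered 3 to 7 of 7, with 3 without TRV130 3; these counts were added after seeing the data.

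For codes B and A, 1862 genes were called without the TRV130 group, against 6260, and 2532 to 7769 with 1 library left out (lowest without TRV130 3). RASAL1 then ran from -0.901 to 0.301, positive without Control 1. RASA3, at -0.006, ran from -0.099 to 0.040, and was 0.0037 with DESeq2, 0.0056 with RLE scaling and 0.053 without the TRV130 group. For codes C and A, 4819 to 8947 genes were called with 1 library left out (lowest without Naloxone 3), NF1 ran from -0.181 to 0.037 and IQGAP1 from -0.175 to 0.055. For codes C and B, RASA2 ran from -0.153 to 0.038 and RASA3 from -0.158 to 0.007. The cause of these changes was not tested. The RASAL1 share of Control 1 was 47.0% by CPM. At 3 reads per library, levels of RASAL1 and RASAL3 in most libraries are limited by counting.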
